A study of Mus musculus with 9 samples.

Results

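The features described here stood apart from sham in the same direction, and by a similar amount, in injured uterine horns with and without transplanted cells. They were selected on the values themselves. A feature was kept if it held at least 90 counts over the 9 libraries, if all 6 injury and CRC libraries lay above, or all lay below, every sham library, if the injury and CRC means were each at least 1.3-fold from the sham mean, and if the smaller of these means was at least 80% of the larger. Zmym1 and names starting with Hox or Col were left out by name, and of these only Zmym1 met all limits. Of 55228 features in the files, 3243 held 90 counts or more, and 97 of these were members, 53 higher and 44 lower than sham. Since the comparisons with sham and the comparison between the injured groups all entered this choice, the values of members are given as a description, with no test.

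The study modelled intrauterine adhesion, the scarring that can follow damage to the endometrium, in 8-week-old wild-type C57BL female mice. Each of the 3 groups had 3 mice, with the uterus collected on day 7. Sham mice had the operation alone. In the injury group a 27 gauge needle was rotated and withdrawn 10 times in the uterine cavity, followed by 50 μL of PBS. The CRC group received the same damage and then 50 μL of wild-type CRCs, which are endometrial epithelial cells of the mouse expanded in culture by conditional reprogramming, on irradiated 3T3 feeder cells. Injury of the endometrium is normally followed by clearance of debris, regrowth of epithelium from the glands and remodelling of stroma, and the endometrium lies on a thick wall of smooth muscle that whole horns include. In such bulk tissue, fewer cells of a type and less RNA per cell cannot be told apart.

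Total RNA depleted of ribosomal RNA was sequenced, and the authors deposited counts of reads per named feature. The counts on features came to 325384, 317754 and 327883 in sham replicates 1, 2 and 3, to 290684, 280886 and 282937 in injury and to 288619, 289964 and 290833 in CRC. Over all libraries 99.2% of records fell outside the counted features. One count was worth 3.33 to 4.01 CPM, the count per 1000000 of the scaled library size. All 3 sham totals were above the other 6, and the TMM factors that correct for composition were 0.949, 0.845 and 0.846 in sham, 0.988 to 1.01 in injury and 1.152, 1.129 and 1.133 in CRC. Sham replicates 2 and 3 stood apart from the other libraries, with 28622 and 24851 records assigned ambiguously to more than 1 feature against 1751 to 6470 elsewhere, and with 3.13% and 2.52% of records not aligned against 1.36% to 1.81%. The totals and TMM factors move with the sham group. The ambiguous and unaligned records do not, since sham replicate 1, at 2571 records and 1.61%, lay within the range of the injury and CRC libraries. The part of these differences in the shifts below was not tested.

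The strand of the counted RNA bears on what every value below means. Xist, the RNA that coats the inactive X chromosome of female cells, held 77 counts in all 9 libraries together, while Tsix, annotated across it on the other strand, held 44560. Actb, Eef1a1 and Gapdh, which are highly expressed in most tissues, held 6, 53 and 76 counts. These 5 features were chosen after values were seen. How the counting treated strand is not stated, and whether reads on a feature came from RNA of the named gene or from RNA of the strand across it cannot be told apart here. Each value is therefore the count on the feature of that name, and the role given for a gene is background on the name.

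Among all 3243 features with enough counts, the 6 injury and CRC libraries were all above every sham library for 130 (4.01%) and all below for 152 (4.69%). All limits of the rule together were met by 54 higher (1.67%, Zmym1 included) and 44 lower features (1.36%). Leaving out a library eases the rule, since fewer libraries have to be separated, so a higher count is in part built in. The count of members was 279 without sham replicate 1, and 162 and 159 without sham replicates 2 and 3. It was 152, 120 and 151 without injury replicates 1, 2 and 3, and 118, 115 and 109 without CRC replicates 1, 2 and 3. With sham replicate 1 as the sole sham library, which was tried only once the values were known, it was 342, of which 69 were among the 97. Without the TMM factor the rule gave 125 higher and 16 lower features, and with library sizes that include reads outside features 89 higher and 18 lower. These scalings moved the median of all features by 0.29 and 0.19 on the log2 scale. Of the 97 members, 40 higher and 9 lower still met the rule without the TMM factor, and 40 higher and 10 lower with sizes from all records. The means of all 97 stayed on the same side of sham under both.

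The first 4 higher members described here carry names of mitochondrial genes, a grouping made after the values were seen. On the list of 11 genes of mitochondrial transcription and translation, 3 held the 90 counts that the rule asks for, and Mterf4 was the 1 member. Mterf4, which acts in assembly of the mitochondrial ribosome, held the most counts of any member. It measured 2052, 1055 and 1660 CPM in the sham libraries, 2437, 3785 and 3429 in injury and 2623, 3525 and 2834 in CRC. The lowest injured library lay 1.19-fold above the highest sham library, and the spread within sham, 1589 ± 502 CPM (SD, n = 3), was wide. The means were 2.02-fold sham in injury and 1.88-fold in CRC. Ak3, a GTP-dependent adenylate kinase of the mitochondrial matrix, measured 682, 581 and 511 CPM in sham, 745, 927 and 798 after injury and 896, 976 and 756 in CRC. Its groups were separated by a gap of 1.09-fold. Fam210a, a protein of mitochondria, had a sham mean of 1157 ± 152 CPM (SD, n = 3), an injury mean of 1651 ± 275 and a CRC mean of 1575 ± 145. Mtfr1, a regulator of mitochondrial fission, averaged 63.0 ± 5.79, 131 ± 8.97 and 116 ± 19.8 CPM in the same order, and like the other members named by role outside the rule for named genes it was chosen after its values were seen.

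Further higher members with varied roles follow, not as a tested group, and some had few counts and large ratios. Prdx4, a peroxiredoxin of the endoplasmic reticulum, was counted 4, 3 and 4 times in the sham libraries, 7, 26 and 6 times after injury and 15, 16 and 14 times with CRCs. Most of its injury mean came from replicate 2, at 98.8 CPM against 26.3 and 22.9 in the others, while the CRC libraries lay between 46.8 and 53.7. Slc7a15, of a family of amino acid transporters, had 9, 0 and 2 counts in sham and 11 to 19 in the other libraries. Scube3, a secreted glycoprotein that is found at the cell surface, averaged 320 ± 61.6 CPM in sham, 432 ± 25.9 in injury and 509 ± 41.9 in CRC. Ctns, the cystine exporter of lysosomes, averaged 30.1 ± 9.31, 58.2 ± 12.3 and 54.6 ± 3.73 CPM.

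The next higher members carry names of genes with varied roles and are not a tested group. Naa25, the auxiliary subunit of the NatB complex that acetylates protein N-termini, measured 38.3, 48.1 and 27.1 CPM in sham, 56.4, 114 and 57.3 after injury and 56.7, 80.5 and 137 in CRC. Injury replicate 2 and CRC replicate 3 were far above the others of their groups, and no injured library reached down to sham. Nasp, a histone chaperone, averaged 21.02 ± 8.12 CPM in sham, 46.8 ± 2.29 in injury and 42.4 ± 10.8 in CRC. Rad52, a protein of homologous recombination, averaged 36.8 ± 19.5, 77.1 ± 15.1 and 88.1 ± 15.2 CPM. Jarid2, a partner of Polycomb repressive complex 2, averaged 136 ± 23.1, 216 ± 11.9 and 182 ± 5.66 CPM, and Kif24, a kinesin of centrioles, 89.7 ± 19.1, 131 ± 22.3 and 153 ± 34.6 CPM. Gpr34, a receptor for lysophosphatidylserine, averaged 43.1 ± 23.6, 89.7 ± 12.9 and 86.9 ± 32.7 CPM.

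The 2 higher members with the largest ratios were Gm42963 and Gm12116, of which Gm12116 is annotated as non-coding. Gm42963, which lies within the body of a non-coding gene on the other strand, was counted 5, 2 and 3 times in the sham libraries. It was counted 17, 25 and 16 times after injury and 19, 22 and 35 times with CRCs. Its means were 5.94-fold and 6.87-fold sham, and its lowest injured library was 3.51-fold above its highest sham library. The gene across it, 4930599N23Rik, named after its values were seen and too low to be tested, was counted 2, 13 and 10 times in the sham libraries, 1, 0 and 0 times after injury and 0, 0 and 2 times with CRCs. Gm12116 had 1 to 4 counts in sham and 5 to 25 elsewhere, with an injury mean of 52.9 ± 38.0 CPM and a CRC mean of 48.0 ± 28.6. Gm42686, across from the transporter gene Abcb1a, averaged 24.6 ± 12.1, 79.7 ± 26.8 and 74.7 ± 8.53 CPM. Egfros, an antisense transcript inside the gene body of the epidermal growth factor receptor with no exon across an Egfr exon, measured 271, 289 and 348 CPM in sham, 463, 475 and 447 after injury and 590, 466 and 445 in CRC. The Egfr feature itself held 4 counts in all. Gm47640, with no gene across it, averaged 267 ± 20.4, 417 ± 83.7 and 419 ± 50.8 CPM.

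The lower members that follow carry names of genes of RNA handling and translation, again grouped after the values were seen. Of 16 genes on the list of RNA splicing and paraspeckles, 4 held the 90 counts that the rule asks for, and 0 were members. Dalrd3, a cofactor of tRNA methylation, held the most counts of them and measured 2876, 2655 and 2812 CPM in sham, 1959, 1706 and 2375 after injury and 1570, 1647 and 1833 in CRC. The sham mean was 1.38-fold the injury mean and 1.65-fold the CRC mean. Hnrnpu, a nuclear RNA-binding protein also known as scaffold attachment factor A, measured 1513, 1692 and 1656 CPM in sham, 1094, 1284 and 1211 after injury and 996, 1123 and 980 in CRC. Here the groups were separated by 1.18-fold and the spread within each was small. Eef2kmt, which methylates elongation factor 2, averaged 119 ± 28.0 CPM in sham, 44.3 ± 31.7 in injury and 54.6 ± 1.77 in CRC. Lower means were also held by Thoc1 of the THO complex for mRNA export (529 ± 62.9, 394 ± 42.8 and 327 ± 109 CPM), by Phax, the export adaptor of small nuclear RNA (143 ± 28.9, 69.6 ± 22.4 and 63.5 ± 23.04 CPM), and by Polr2c, a subunit of RNA polymerase II (145 ± 32.1, 82.2 ± 13.5 and 77.0 ± 23.4 CPM).

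Other lower members carry names of genes with varied roles, or names with no known role, and are not a tested group. Chpf2, which takes part in chondroitin synthesis, measured 685, 557 and 716 CPM in sham, 500, 384 and 397 after injury and 383, 439 and 408 in CRC. Shc4, a signalling adaptor, averaged 663 ± 143 CPM in sham, 379 ± 53.1 in injury and 429 ± 73.9 in CRC, and its lowest sham library, at 504 CPM, nearly met its highest CRC library, at 503. Slc5a2, the sodium-glucose transporter of the kidney, averaged 612 ± 96.6, 443 ± 69.0 and 371 ± 27.9 CPM. Serhl, a serine hydrolase-like gene, had the largest ratios, with 69.6, 192 and 92.8 CPM in sham, 33.8, 26.6 and 34.4 after injury and 33.3, 23.5 and 23.4 in CRC. Sham replicate 2 was far above the other sham libraries, and even the lowest sham library was 2.02-fold the highest injured one. H2afy2, which encodes the histone variant macroH2A2, averaged 92.2 ± 33.1, 29.1 ± 4.57 and 30.1 ± 8.80 CPM. Cacfd1, with no gene across it, was counted 20, 24 and 22 times in the sham libraries, 7, 13 and 7 times after injury and 4, 12 and 16 times with CRCs. Ppox, an enzyme of heme synthesis, averaged 239 ± 84.6, 139 ± 38.3 and 147 ± 12.2 CPM. Gm44560, across from Ube3a, averaged 1164 ± 42.1, 865 ± 89.98 and 846 ± 74.6 CPM. Gm42670 averaged 82.0 ± 17.3, 35.3 ± 16.8 and 31.2 ± 23.7 CPM. Gm13477 averaged 81.5 ± 26.9, 34.1 ± 9.93 and 33.4 ± 5.69 CPM.

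**Figure D1:**
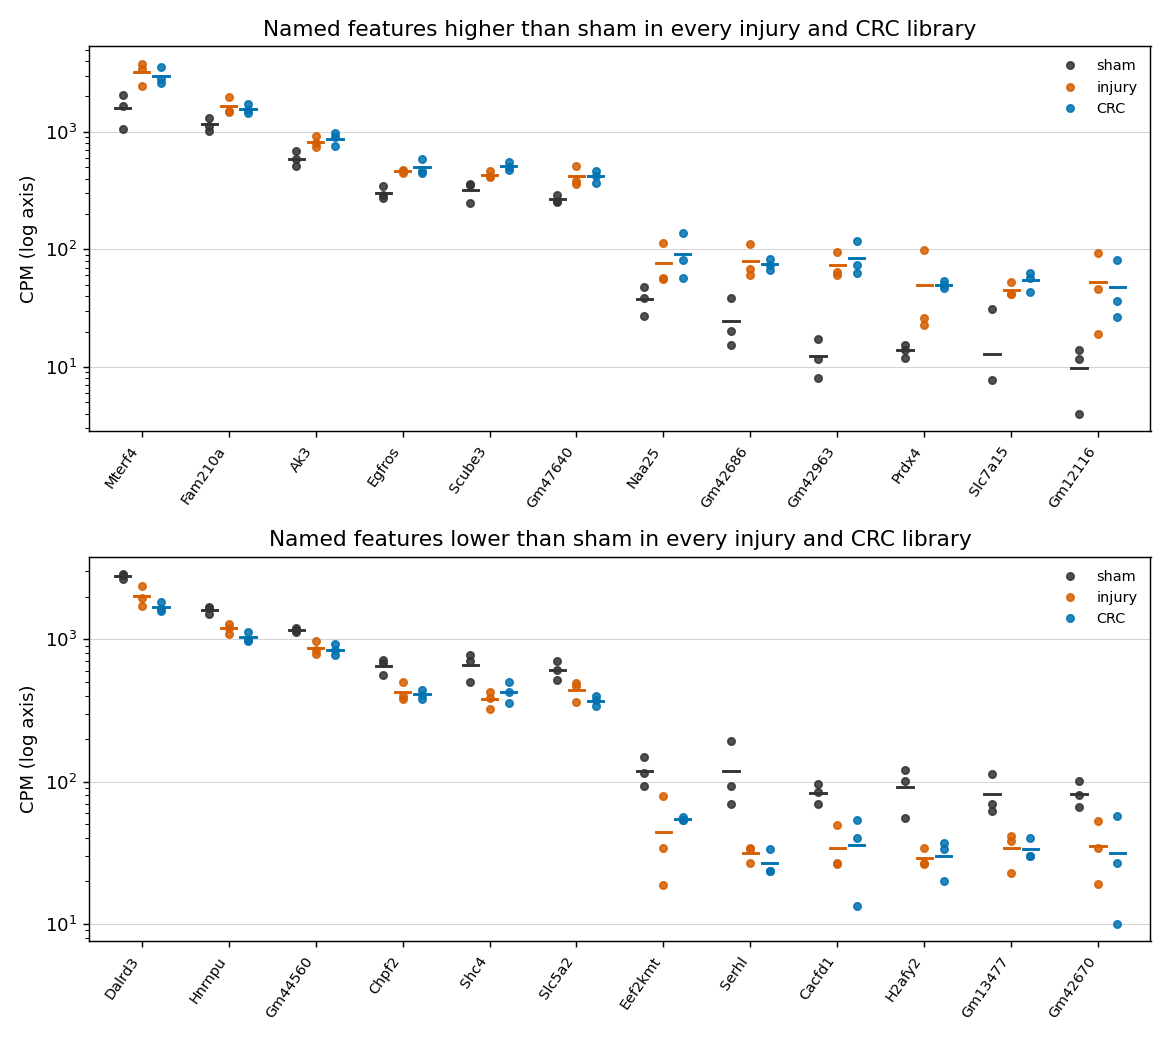
CPM in each library (points) and the group mean of 3 libraries (bars), on a log axis, for the named features higher (top) and lower (bottom) than sham. The injury and CRC points lie on 1 side of sham, as the choice of members required, and sham replicate 2, with 0 counts on Slc7a15, is not drawn there.

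Over all higher members the median ratio to sham was 2.02 in injury and 1.94 in CRC. Over the lower members the sham mean was a median of 1.59-fold the injury mean and 1.63-fold the CRC mean. The CRC mean was above the injury mean in 26 of 53 higher and 17 of 44 lower members. Counts were low: 27 of the higher and 12 of the lower members held under 200 counts over 9 libraries. Sham replicate 1 was the sham library nearest the injured libraries in 34 of the higher and 22 of the lower members. Sham replicate 2 was nearest in 5 and 13, and sham replicate 3 in 14 and 9. The share over all features was not taken, so nothing is read from these counts. At the 1.3-fold limit, Pus3, a tRNA pseudouridine synthase, was just inside with 1.32-fold in CRC, and Hnrnpab was just outside with a sham mean 1.28-fold its injury mean. At the limit on likeness, Ppifos was just inside, with injury 1.248-fold CRC, and Tmem253 just outside, with CRC 1.254-fold injury.

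Overlap with genes on the opposite strand, which the rule did not use, is given as a description with no test. Positions were taken from GENCODE M21 on GRCm38, in which 94 of the 97 names matched a gene. An exon on the opposite strand overlapped 35 of 43 matched lower members (81.4%) and 21 of 51 matched higher members (41.2%), against 1972 of 3171 matched features with 90 counts or more (62.2%). With genes that overlap a member only outside their exons also counted, a gene lay across 37 of 43 lower (86.0%) and 37 of 51 higher members (72.5%), against 81.7% of matched features, so that the contrast was smaller. Protein-coding genes made up 30 of the higher and 28 of the lower members and 60.1% of all features with enough counts. A partner, meaning a feature that is not a member and has an exon across a member's exon, was in the files for 52 members. Per kilobase of exon, the member held more counts than every partner in 16 of 19 higher and 27 of 33 lower members. Members had to hold 90 counts to be chosen and partners did not. Dalrd3 held 5318 counts and Wdr6 across it 57. Shc4 held 1207 counts and Eid1 3, Slc5a2 held 1167 and BC017158 0, and Gm44560 held 2369 and Ube3a 9.

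Partners were not used in choosing members and were tested with edgeR's quasi-likelihood test and Benjamini-Hochberg adjustment over all 3644 features tested. Between injury and sham, 13 of these features were called higher (0.357%) and 6 lower (0.165%) at an adjusted p under 0.05. Of 60 partners, 26 had enough counts to be tested, and edgeR called 0 between injury and sham. DESeq2 also called 0, and 5 of the 26 partners had an unadjusted p under 0.05 in edgeR, against 465 of all 3644 features. Without sham replicate 1, Cdc37l1 and Cox20 were called there (adjusted p = 0.0234 and 0.00769 from edgeR). The partners of higher members had a median log2 fold change of 0.08 and those of lower members 0.15, against -0.01 over all features tested. Between CRC and sham, 321 features were called higher (8.81%) and 439 lower (12%). Among the 26 partners 2 were called higher and 2 lower there, which is near these shares. Medians were 0.24 for partners of higher members, -0.08 for partners of lower members and 0.03 over all features. The comparisons share the sham libraries.

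The partners called between CRC and sham moved with their member in 2 pairs and against it in 2. Cdc37l1, which resembles the Hsp90 cochaperone Cdc37, lies across Ak3 on chromosome 19 with 430 bases of shared exon. It measured 522, 277 and 398 CPM in sham, 526, 604 and 542 after injury and 1220, 1284 and 1084 in CRC, and was highest in the 3 CRC libraries. Its injury libraries lay above every sham library, close to sham replicate 1 and further from the other 2. Its log2 fold change in CRC was 1.58 (standard error 0.19, adjusted p = 3.01e-07 from edgeR). Smarcd3, a subunit of SWI/SNF chromatin remodelling complexes, shares 2466 bases of exon with the lower member Chpf2. It measured 654, 886 and 1048 CPM in the sham libraries, 918, 521 and 569 after injury and 449.91, 372 and 458 with CRCs, where every library was below every sham library. In CRC it fell by 1.01 on the log2 scale (standard error 0.21, adjusted p = 0.000563 from edgeR). Without single libraries its adjusted p reached at most 0.0111. With sham replicate 1 as the sole sham library, a fit that takes that library to vary like those of the other groups, its adjusted p was 0.0741.

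Vps37a, a subunit of the ESCRT-I sorting complex, shares its last 40 bases with the end of the annotated exons of Mtmr7, a phosphoinositide phosphatase, on chromosome 8. Mtmr7 was a higher member and averaged 260 ± 37.5 CPM in sham, 387 ± 50.5 in injury and 356 ± 25.3 in CRC. Vps37a measured 219, 136 and 159 CPM in the sham libraries, 48.9, 91.2 and 80.2 after injury and 26.7, 57.0 and 40.1 with CRCs, where it fell. Its log2 fold change was -2.05 in CRC (standard error 0.38, adjusted p = 0.000155 from edgeR) and -1.22 in injury (standard error 0.36, adjusted p = 0.15), which did not pass. B4galt3, a galactosyltransferase across the lower member Ppox, measured 97.4, 68.2 and 104 CPM in the sham libraries, 97.8, 148 and 64.9 after injury and 207, 208 and 141 with CRCs. Its CRC libraries were above every sham library, and its injury libraries overlapped both groups. Its log2 fold change in CRC was 1.03 (standard error 0.33, adjusted p = 0.0241 from edgeR), and without sham replicate 2, CRC replicate 1 or CRC replicate 2 the adjusted p was 0.0615, 0.0968 or 0.101. The call was also lost with no filter on low counts and with sham replicate 1 as the sole sham library (0.137).

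**Figure D2:**
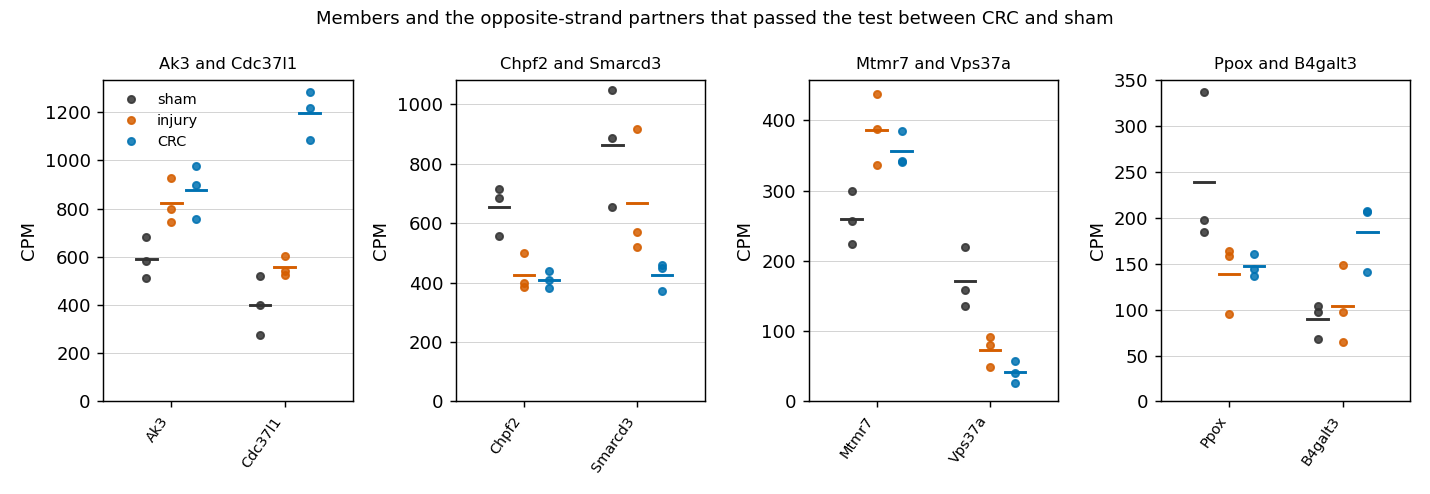
CPM in each library (points) and the group mean of 3 libraries (bars), on linear axes from 0, for the 4 members with a partner called between CRC and sham (left of each panel) and that partner (right). Cdc37l1 is highest in CRC, at 1084 to 1284 CPM, and Vps37a lowest, at 26.7 to 57.0 CPM.

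Partners of other named members did not pass in either comparison. Cox20, an assembly factor of cytochrome c oxidase across from Hnrnpu, averaged 388 ± 110 CPM in sham, 616 ± 92.3 in injury and 457 ± 69.3 in CRC, while Hnrnpu was lower in both injured groups. Sned1 across from Mterf4 averaged 225 ± 23.1, 172 ± 41.9 and 266 ± 70.7 CPM, and Erp29 across from Naa25 averaged 801 ± 27.3, 759 ± 24.5 and 599 ± 97.9. Hyls1 across from Pus3 averaged 938 ± 130, 1184 ± 111 and 934 ± 118 CPM, Ldlrad4 across from Fam210a 663 ± 139, 668 ± 127 and 560 ± 12.3, and Rrp7a across from Serhl 157 ± 43.0, 130 ± 40.5 and 144 ± 51.5. In all, 27 partners held under 30 counts, 7 of higher and 20 of lower members, and 10 held none in any library.

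Members lay next to each other at a pair of loci, both chosen after their values were seen. Within the gene Kansl1l on chromosome 1, Gm38162 (chr1:66775511-66780107) and the pseudogene Gm15789 (chr1:66783913-66786445) lie on the plus strand and were higher, and Gm38387 (chr1:66769290-66771866) lies on the minus strand, that of Kansl1l, and was lower. Gm38162 measured 261, 176 and 162 CPM in sham, 263, 399 and 409 after injury and 340, 416 and 465 in CRC, and Gm38387 measured 143, 108 and 120, then 52.6, 98.8 and 84.0, then 86.6, 83.8 and 53.5. Kansl1l, a partner of Gm38162, averaged 225 ± 55.4 CPM in sham, 275 ± 24.9 in injury and 227 ± 33.6 in CRC, and did not pass the test in injury (adjusted p = 0.67 from edgeR) or in CRC (adjusted p = 0.982). On chromosome 8, Pex11g, a gene of peroxisomes, was higher and Gm44775, which shares 1396 bases of exon with it on the other strand, was lower. Pex11g averaged 74.6 ± 21.7, 134 ± 31.2 and 145 ± 44.8 CPM and Gm44775 averaged 169 ± 24.8, 97.5 ± 38.6 and 120 ± 10.2.

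The upstream sequences of 3 members are shown. Among the members that the rule for named genes takes, these had an entry in the table, no exon across them on the other strand and a window free of annotated exons. They come from RefSeq on GRCm38.p6, are the 250 bases before 1 annotated start of each gene, and are written in the direction of transcription, with the letters that match a motif on either strand in capitals. In the 32851 promoters of the table, windows of the same length held the TATA box (TATAAA) in 12.4%, the CCAAT box (CCAAT) in 33.8%, the GC box (GGGCGG) in 32.7% and the E-box (CACGTG) in 6.02%. They held the cyclic AMP response element (TGACGTCA) in 1.55%, the AP-1 site (TGANTCA) in 6.75%, the nuclear receptor site (AGGTCA) in 14.0% and the CACCC box (CACCC) in 52.0%. The core site of the progesterone and glucocorticoid receptors (TGTTCT) was in 16.1% and the GLI site (TGGGTGGTC), which holds a CACCC box on its other strand, in 0.225%. Since 51 of the 97 members had an entry, a comparison of motif shares over the members was void. As the strand of the counted RNA is not known, the windows of members need not lie upstream of the RNA that was counted. Egfros (minus strand, chr11:16830751-16831000) held 1 nuclear receptor site. Slc7a15 (minus strand, chr12:8599067-8599316) held a TATA box, a CCAAT box, a GC box, a nuclear receptor site and a CACCC box, 1 of each. Egfros and Slc7a15 each had a second start in the table, not shown. That window of Egfros (chr11:16830679-16830928) includes 24 annotated exon bases and held 2 AP-1 sites and 1 nuclear receptor site, and that of Slc7a15 (chr12:8539567-8539816) held 1 CCAAT box and none of the other motifs. Cacfd1 (plus strand, chr2:27009676-27009925), the lower member, held 3 GC boxes, 1 CCAAT box and 1 CACCC box.
Egfros: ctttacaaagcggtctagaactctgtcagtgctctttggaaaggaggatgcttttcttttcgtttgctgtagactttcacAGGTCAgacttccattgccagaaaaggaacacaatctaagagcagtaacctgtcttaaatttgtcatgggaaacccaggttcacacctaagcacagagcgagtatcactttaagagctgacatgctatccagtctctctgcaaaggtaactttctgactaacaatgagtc
Slc7a15: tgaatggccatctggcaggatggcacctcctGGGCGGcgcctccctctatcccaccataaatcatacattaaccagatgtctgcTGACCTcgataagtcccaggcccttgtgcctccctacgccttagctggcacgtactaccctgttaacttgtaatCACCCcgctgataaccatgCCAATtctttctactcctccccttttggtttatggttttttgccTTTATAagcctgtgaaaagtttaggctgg
Cacfd1: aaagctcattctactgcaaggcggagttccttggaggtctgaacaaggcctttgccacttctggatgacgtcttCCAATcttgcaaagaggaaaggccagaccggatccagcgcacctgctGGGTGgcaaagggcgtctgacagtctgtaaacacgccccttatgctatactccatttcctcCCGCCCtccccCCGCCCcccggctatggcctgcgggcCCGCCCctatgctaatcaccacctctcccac

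The gene lists held 206 genes of the files in 19 lists, and 3 of them were members, all higher, among them Mterf4 and Naa25. Of the others 35 were tested. The lists were drawn up with earlier results of these data known, so nothing is read from the share of their genes that was called. Between injury and sham, 3 were called higher and 1 lower by edgeR, with 0.357% and 0.165% called over all features tested. These were Cep85 of the centrosome list (log2 fold change 2.16, adjusted p = 3.03e-09), Cdk13, a transcriptional kinase (0.87, adjusted p = 0.00401), Naa35, the auxiliary subunit of the NatC acetyltransferase (0.78, adjusted p = 0.0193), and Tsc2, an inhibitor of mTOR signalling, which fell by 0.80 (adjusted p = 0.038). The call on Cdk13 was lost without sham replicate 3 or injury replicate 2 (adjusted p = 0.112 and 0.0685), that on Naa35 without sham replicate 3 or any 1 injury library (0.0902 to 0.145), and that on Tsc2 without any 1 library other than sham replicate 1 (0.0586 to 0.237). The calls on Naa35 and Tsc2 were also lost with only the 2 groups in the fit and with the replicate number as a block, and that on Tsc2 with library sizes from all records. The count of calls was 7 without sham replicate 1, 1 without sham replicate 3 or injury replicate 2, and 2 without injury replicate 1 or 3. With sham replicate 1 as the sole sham library, 1 list gene was called.

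Between CRC and sham 7 of the 35 list genes were called higher and 5 lower by edgeR, with 8.81% and 12% called over all features tested. In cholesterol synthesis, Cyp51 (log2 fold change 1.10, adjusted p = 0.00814) and Sqle (1.11, adjusted p = 0.0486) rose, and Fdft1 did not pass, at 274 ± 83.6 CPM in sham, 443 ± 97.4 in injury and 292 ± 91.4 in CRC. The list had 22 genes in the files, of which 10 held no count. Naa35, in the list of the member Naa25, fell by 1.67 (adjusted p = 1.97e-08), from 1187 ± 277 CPM in sham to 373 ± 45.6 in CRC, after 2041 ± 101 in injury. Genes beside Mterf4 in its list did not pass in either comparison, among them Twnk, the mitochondrial helicase, at 289 ± 89.5, 329 ± 31.3 and 210 ± 42.5 CPM. Other calls in CRC included Cep85 (1.00), the kinase Rps6kb1 (0.91), the metalloproteinase inhibitor Timp3 (1.18) and Nr2f2 (0.84) higher, and Akap9 (-1.59), Rbm25 (-1.57), Myh11 (-1.23) and Csf1r (-1.02) lower, as log2 fold changes. Without 1 library the count of calls ran from 7, without CRC replicate 1, to 16, without sham replicate 1. The call on Sqle was lost without any 1 library other than sham replicate 1 and injury replicate 2 (adjusted p 0.0526 to 0.16), and also with DESeq2 and with the replicate number as a block. The call on Timp3 was lost without sham replicate 2 or 3 or CRC replicate 1 or 3 (0.0752 to 0.132), and without sham replicate 1 its log2 fold change was 1.84. The call on Rps6kb1 was lost without sham replicate 3 or CRC replicate 1 or 2 (0.0819 to 0.0921). Calls were lost for Cyp51 without CRC replicate 1 (0.0507), for Nr2f2 without CRC replicate 2 (0.0826) and for Rbm25 without sham replicate 2 (0.0551), where its log2 fold change was -0.96 in place of -1.57. With sham replicate 1 as the sole sham library, 5 list genes were called.

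Cell type markers held few counts on their features. Since Actb and Eef1a1 were as near 0 (6 and 53 counts), a marker at or near 0 is not evidence that its cells were absent. The 8 smooth muscle genes summed to 428, 606 and 530 CPM in sham, 316, 361 and 344 after injury and 263, 255 and 341 in CRC, all 6 injured libraries below every sham library. Means below sham in both injured groups were held by 5 of its genes. Myh11, smooth muscle myosin, with 459 counts the first of the list, averaged 288 ± 45.8 CPM in sham, 154 ± 18.95 in injury and 123 ± 62.8 in CRC. Tagln averaged 87.6 ± 17.4, 68.3 ± 11.3 and 40.1 ± 11.6, Des 44.99 ± 27.1, 15.2 ± 3.70 and 18.9 ± 13.5, Acta2 24.1 ± 3.67, 11.4 ± 7.67 and 12.3 ± 10.3, and Smtn 14.7 ± 9.32, 13.98 ± 13.4 and 12.3 ± 7.75. Lmod1 (49.1 ± 6.81, 51.8 ± 1.91 and 54.6 ± 13.6) and Cnn1 (12.9 ± 9.90, 24.1 ± 15.5 and 25.6 ± 15.1) had means above sham, and Actg2 held 1 count. Myh11 fell in CRC (adjusted p = 0.00335 from edgeR) and did not pass in injury (adjusted p = 0.172). The genes of the list did not all follow its sum. The 12 genes of extracellular matrix other than collagen, led by Fbn1 with 40 counts, summed to 73.0, 108 and 69.6 CPM in sham. Their sums were 30.1, 41.8 and 26.7 CPM after injury and 60.0, 53.7 and 30.1 in CRC, also with all 6 injured libraries below every sham library. Such separation was not particular to these lists. The sum of the TSC and mTOR list also lay below every sham library in all injured libraries. Sums wholly above sham were held by the lists of cholesterol synthesis, of mitochondrial transcription and translation, and of nuclear and imprinted non-coding RNA. Some of these lists hold members of the rule. The part of any sum in the members was not tested. The 10 endometrial epithelial genes together held 13, 8 and 3 counts in the sham libraries, 2, 5 and 4 after injury and 6, 5 and 3 with CRCs, with overlapping groups, Muc1 first with 27 counts and Cdh1, Foxa2, Wfdc2 and Lcn2 at 0. The 7 stromal genes summed to 184, 229 and 205 CPM, then 184, 255 and 210, then 267, 349 and 288, with Nr2f2 first at 498 counts and Vim next at 47. The 7 endothelial genes summed to 83.5, 24.1 and 50.3 CPM, then 33.8, 57.0 and 42.01, then 39.99, 80.5 and 50.2, led by Emcn with 48 counts. Of 9 leukocyte genes, 6 were at 0, among them Ptprc, Adgre1, Lyz2, Cd3e and S100a8, and the sum, nearly all from Csf1r, was 229, 253 and 306 CPM in sham, 237, 186 and 237 after injury and 157, 121 and 117 in CRC. Of 5 red blood cell genes the 4 globins were at 0, and Alas2 had 55.6, 56.1 and 50.3 CPM in sham, 33.8, 30.4 and 30.5 after injury and 26.7, 93.9 and 36.8 in CRC.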

How the data were processed

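RNA of whole uterine horns was sequenced from 3 sham, 3 injury and 3 CRC mice, with 1 library per mouse. The authors deposited whole-number counts per feature, not normalized, and the 5 summary rows on uncounted reads were left out of sizes and tests. The submitters' processing notes name HISAT2 2.1.0 and StringTie 2.1.1. The paper gives the mouse genome as mm38 and names an annotation version other than the one used here, and the names of the deposited files point to HTSeq. The strand setting of the count is not stated.

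CPM was the count divided by the column sum over features with 90 counts or more and by edgeR's TMM factor. The same effective sizes were used in 1 edgeR 4.0.16 robust quasi-likelihood fit (glmQLFit, glmQLFTest) of all 9 libraries in R 4.3.3 on the features that filterByExpr kept, checked on simulated data. DESeq2 1.42.0 and the other alternatives in the closing section were run beside it. Within groups, libraries varied by more than counting error (chi-square over its degrees of freedom 2.30 to 15.9). Counting limits do not cover PCR copies.

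Named members were, in each direction, the 6 with the highest mean CPM, the 6 with the largest geometric mean ratio, those on a gene list, and those without an opposite exon and with a mean of 100 counts, plus the features nearest the limits. Named partners and list features were those that passed the test, with at most 3 per list, and the partners of named members. Not every feature that these rules take is described. The members and lists were chosen with earlier results of these data known. Of 55228 feature names, 53456 matched 1 gene of GENCODE M21 and 113 several.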

Additional observations from a re-analysis of the deposited data

How the results depend on the processing

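The count of 97 members lay between 65 and 142 under other scalings, count minimums, fold limits and group medians. It was between 109 and 279 without 1 library, which eases the rule since fewer libraries have to be separated. With sham replicate 1 as the sole sham library, chosen after the data were seen, it was 342. In tests with that setting the lone library is assumed to vary like the other groups.

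Called partners between injury and sham numbered 0 in every setting other than without single libraries (0 to 2). Between CRC and sham they numbered 3 to 5 against 4. Called list genes between injury and sham were 4, against 2 with only the 2 groups compared, 2 at an adjusted p under 0.01, 1 to 7 without 1 library and 1 with sham replicate 1 as the sole sham library. Between CRC and sham they were 12, against 7 at an adjusted p under 0.01, 7 to 16 without 1 library and 5 with sham replicate 1 as the sole sham library. The cause was not tested.

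The replicate numbers did not pair the libraries, with correlations of same-numbered deviations from -0.09 to 0.08. With the replicate number as a block, 2 list genes were called between injury and sham and 11 between CRC and sham, with 0 and 4 partners, and all calls went from 19 to 5 and from 760 to 678. Depth limits the members, of which 39 held under 200 counts. Median totals of higher and lower members lay on either side of that of all features with enough counts.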
